A study of Homo sapiens with 4 samples.

Results

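In FaDu cells, 541 of the 2807 regions listed with a difference in ac4C between control and NAT10-depleted cells were annotated to a 3′-UTR and held 2 or more CXXCXXCXXCXX sites, and these regions, in 528 genes, are described here. They were chosen by the region class and the number of sites in the authors' table of differential peaks, so every one of them had been selected on a difference between the conditions, and neither that difference nor the site number is a finding. Of the other 3′-UTR differential peaks, 684 had 0 sites and 350 had 1 site, out of 1575 in all. FaDu is an established human cell line derived from a hypopharyngeal squamous cell carcinoma. The control cells carried a non-targeting shRNA (shNC) and the other cells an shRNA against NAT10 (shNAT10). Per the study's methods both were stable lines made by lentiviral transduction and puromycin selection, so each condition is 1 selected cell population. The study states that knockdown was measured by RT-qPCR and western blot. The tables used here hold no RNA levels with which the knockdown could be checked. In acRIP-seq, RNA is fragmented, fragments with ac4C are pulled down with an antibody (the IP), and their abundance is set against RNA taken before the pull-down (the input). The 4 libraries were 1 IP and 1 input of shNC and 1 IP and 1 input of shNAT10. With no replicates, no test between the conditions was made, and each fold enrichment below is a single value per condition, relative to the input of that condition and without a replicate error.

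NAT10 is the acetyltransferase known for writing N4-acetylcytidine (ac4C) on RNA, and C-rich runs in which a cytidine is followed by any 2 bases, over and over, are the sequence context usually given for it in mRNA. The 3′-UTR is the stretch of an mRNA behind the stop codon, where binding proteins and microRNAs act on stability and translation, and ac4C on mRNA has been linked to both. Each site here is a 12-nt stretch with a cytidine at its 1st, 4th, 7th and 10th base, and X stands for any base.

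The shNC list held 6403 peaks and the shNAT10 list 6417, with a median fold enrichment (IP over input) of 12.4 in each. Read depth cannot be known from these tables, which give peaks alone. As a check of the cell type, 3 of 8 markers of squamous epithelium (TP63, SFN and CDH1) had a listed peak in each condition, 0 of 5 immune and 0 of 3 endothelial markers did, and 1 of 4 fibroblast markers (COL1A1) did in shNC. The keratin genes KRT5, KRT6A, KRT14 and KRT17 and EPCAM had no listed peak. A listed peak is not an RNA level, so the label was neither borne out nor contradicted by these markers.

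The sites below are shown because they are the ones of these regions whose bases could be read from RefSeq sequences (GRCh38.p14), 8 sites in 6 genes. They are written 5′ to 3′ on the strand of the gene, with the 4 cytidines of the motif in capitals and up to 9 bases on either side.
ID1, chr20:31605405-31605416, plus strand: cgccagtggCagCacCgcCaccgccgccgc
ID1, chr20:31605429-31605440, plus strand: gcgggCccCagCtgCgcgctga
ADIRF, chr10:86968505-86968516, plus strand: ccaacgtcgCtcCagCtgCtcttgacgact
TMSB10, chr2:84905664-84905675, plus strand: tgtttcttgCtgCagCaaCgcgagtgggag
TSPAN31, chr12:57748669-57748680, plus strand: ccCacCcaCaaCaata
STRN4, chr19:46719699-46719710, minus strand: ttcatggcgCcgCccCacCcgcattatcac
FAF1, chr1:50441363-50441374, minus strand: agaagggctCctCgcCaaCccacccacacg
FAF1, chr1:50441316-50441327, minus strand: aatgtcacaCttCtgCctCttgcaaaattg

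The bases between the cytidines differed from site to site, and the flanks ranged from the GC-rich run of ID1 to the A-rich end of the lower FAF1 site. ID1, a repressor of basic helix-loop-helix transcription factors, had a fold enrichment of 263 in shNC, the highest of these regions in that condition, and 28.3 in shNAT10. ADIRF, named for its part in fat cell differentiation, had 94.6 in shNC and 30.9 in shNAT10. STRN4, a scaffold of the striatin complexes, had 40.7 and 7.97, and FAF1, a cofactor of the segregase VCP, had 38.0 and 10.1. In TMSB10, which encodes an actin-binding thymosin, the values were 6.93 and 6.12. TSPAN31, a tetraspanin, was the exception in direction, with 42.4 in shNC and 70.1 in shNAT10. The shNC value was the higher in 5 of these 6 genes, beside 54.7% of all differential peaks that leaned to shNC, and the genes were picked only because their bases could be read.

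The class of a region is not the place of every site in it. The regions of ADIRF, TMSB10 and ID1 spanned 93.5%, 97.7% and 93.7% of the gene and began 26 nt before, 2 nt before and 82 nt after the annotated gene start, so the sites shown for them lie near the 5′ end of the gene although the region was classed as 3′-UTR. Such regions were few. Of the 529 regions matched to a RefSeq gene by Ensembl identifier, symbol or synonym, 14 spanned at least 50% of the gene and 7 began no more than 200 nt behind its start.

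The 541 regions held 1789 sites, or 0.895 sites per 100 nt of exonic sequence (95% Poisson interval 0.854 to 0.938, for counting only). Sites were few in most regions: 235 had 2 sites (43.4%), 139 had 3 (25.7%) and 74 had 4 (13.7%), and only 11 had 9 or more. The region with most sites lay in PTMS, the parathymosin gene, with 19 sites over 1122 nt in 6 exonic blocks, and its fold enrichment was 17.5 in shNC and 17.2 in shNAT10. Another 8 regions held 10 sites each. Of these, TCF7L1, a transcription factor of the Wnt pathway, had 8.29 in shNC and 21.0 in shNAT10, and IMPDH1, an enzyme of guanine nucleotide synthesis, had 11.7 and 5.41. NUPR1, a stress-induced nuclear protein, had 157 and 38.9, while JUP, which encodes the desmosomal protein plakoglobin, had 8.79 and 46.5. The other regions with 10 sites lay in CTXN1 (99.1 in shNC and 50.7 in shNAT10), INAFM1 (38.7 and 6.34), UBTF, a factor of ribosomal RNA transcription (48.7 and 6.84), and IRF2BP1 (27.3 and 25.9). All 9 regions with 10 or more sites were listed in both conditions, 7 of them with the higher value in shNC and 2 in shNAT10, beside 56.7% higher in shNC among all regions listed in both.

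**Figure D1:**
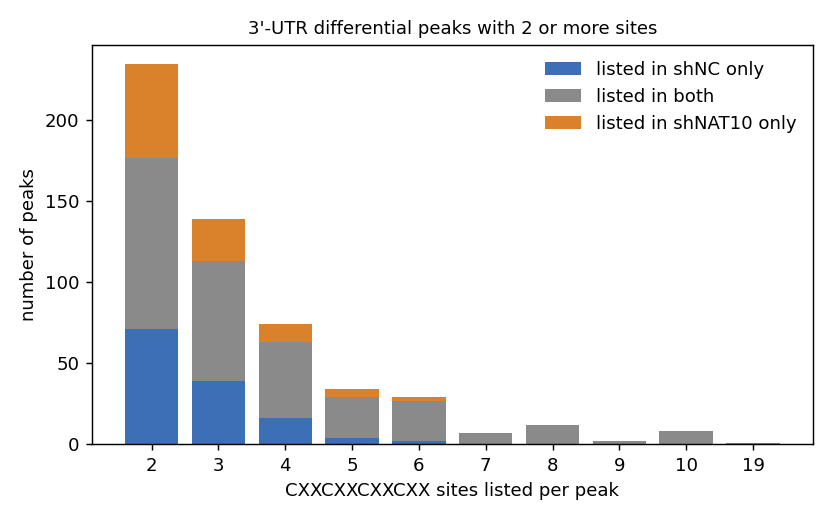
Number of 3′-UTR differential peaks (vertical axis) with each number of listed CXXCXXCXXCXX sites (horizontal axis, numbers that did not occur left out), stacked by the condition in which a peak was listed. Of the regions with 2 sites, 71 were listed in shNC only and 58 in shNAT10 only, whereas all 30 regions with 7 or more sites were listed in both conditions.

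Within the spliced regions, neighbouring sites began a median of 56.0 nt apart over 1248 neighbouring pairs, and 668 pairs (53.5%) began within 60 nt of each other. The smallest distance was 12 nt, the length of a site, because overlapping matches were not listed. Sites that adjoined without a gap made up 54 pairs (4.33%, 95% Wilson interval 3.33 to 5.60) in 48 regions. The longest such chains had 3 sites in a row, 36 nt, and occurred in C20orf27 and in CLPTM1. The median distance was 56.0 nt in regions listed in shNC only, 58.0 nt in regions listed in both conditions and 43.0 nt in regions listed in shNAT10 only. When each region was divided into 3 parts of equal length, 32.3% of the sites fell in the 5′ part, 35.4% in the middle (95% Wilson interval 33.3 to 37.7) and 32.3% in the 3′ part. For the 350 regions with 1 site, the middle part held 36.0% (31.1 to 41.2). Sites were spread over the length of the regions in both sets.

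**Figure D2:**
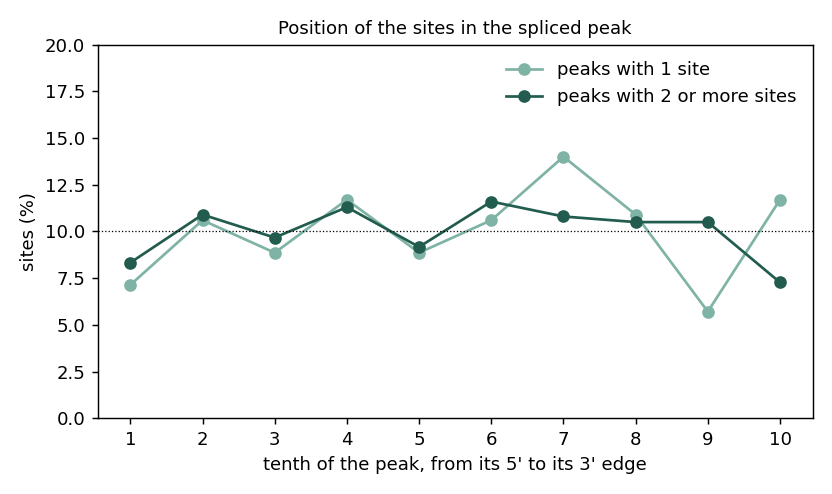
Share of sites (vertical axis, %) in each of 10 equal parts of the spliced peak from its 5′ to its 3′ edge (horizontal axis), for 3′-UTR differential peaks with 1 site (light, 350 sites) and with 2 or more (dark, 1789 sites); the dotted line marks 10%. The dark line stays between 7.27% and 11.6%, with its lowest values at both edges. A site is placed by its middle and lies whole inside the peak, so the outermost bases can hold none, which lowers both edges.

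A region of the table of differential peaks was set against the peaks called in each condition, and counted as listed in a condition where its exonic blocks shared 1 bp or more with a peak of that list on its own strand. Counted so, 307 of the 541 regions (56.7%, 95% Wilson interval 52.5 to 60.9) were listed in both conditions, beside 40.4% of all differential peaks. A further 132 (24.4%, 21.0 to 28.2) were listed in shNC only, beside 32.2% of all differential peaks, and 102 (18.9%, 15.8 to 22.4) in shNAT10 only, beside 27.3%. These intervals cover the sampling of regions, not the spread between cultures. The rule used the same contrast, and regions that join peaks of both conditions have more room for sites, so the shares are given as a description. At an overlap of at least 50% of both lengths the share listed in both conditions was 41.4%, over the 534 regions still listed in a condition. Peaks were taken as listed, with no limit on their false discovery rate (FDR). A few had little support, such as those of BMP1 and FBXO44 in shNC and MMAB and BLOC1S1 in shNAT10, at about 1e-1. The shNC peak of CAMKMT had a still higher FDR. With listed peaks of an FDR of at most 1e-10 the share was 42.9%, over 468 regions. The 40.4% of all differential peaks belongs to the 1 bp rule, so it is no background for these stricter settings.

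The listing differed with the number of sites, and so did the length. Among 3′-UTR differential peaks with 0 and 1 sites, 23.0% and 32.6% were listed in both conditions. Just inside the limit, the 235 regions with 2 sites had 45.1%, while 3 sites had 53.2% and 4 or more had 76.0%. The median exonic length followed the same order, from 210 nt with 0 sites and 240 nt with 1 site to 271 nt, 329 nt and 420 nt with 2, 3 and 4 or more. The median fold enrichment in the table of differential peaks, the authors' value, was 8.65, 9.89, 10.5, 9.92 and 18.3 in these 5 classes. Within regions of like length the classes lay closer together than over all lengths. From 150 to 250 nt, 8.22% of regions with 0 sites, 10.6% with 1 site and 12.7% with 2 or more (95% Wilson interval 8.40 to 18.9) were listed in both conditions. From 251 to 400 nt the shares were 49.7%, 54.5% and 61.7% (54.6 to 68.2), and above 400 nt they were 78.8%, 82.9% and 91.8%, the last with a lower limit of 86.9%. With 2 or more sites pooled, the order was the same in each length class, and the intervals of neighbouring classes overlapped. Split further, it was not: from 251 to 400 nt the shares with 2, 3 and 4 or more sites were 62.3%, 61.8% and 60.7%, and from 150 to 250 nt they were 9.18%, 13.6% and 33.3%, the last over 15 regions. A region listed in both conditions was mostly the union of the peaks of both, as given below, which by itself adds length and room for sites. The parts of length, of this union and of sites in the listing cannot be told apart beyond this.

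**Figure D3:**
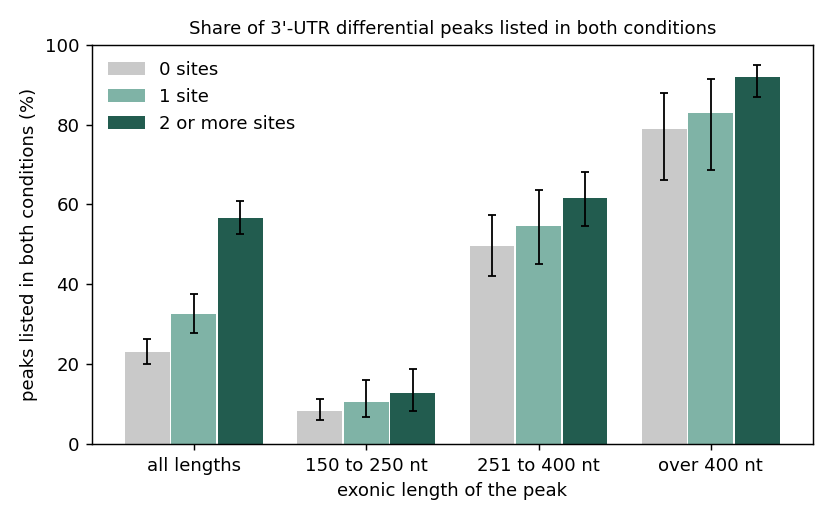
Share of 3′-UTR differential peaks listed in both conditions (vertical axis, %), by exonic length of the peak (horizontal axis) and by number of sites (bars), with 95% Wilson intervals as error bars. Over all lengths the share was 23.0% with 0 sites and 56.7% with 2 or more, whereas in peaks of 150 to 250 nt it was 8.22% and 12.7%. It was 49.7% and 61.7% from 251 to 400 nt, and 78.8% and 91.8% above 400 nt.

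A region was also set against the listed peaks inside it. In 283 of the 307 regions listed in both conditions (92.2%) the exonic sequence was fully covered by the listed peaks of the conditions, so such a region was close to the union of both. The median region had 420 nt, of which 359 nt lay in shNC peaks, 358 nt in shNAT10 peaks and 270 nt in both. Regions listed in a single condition had a median of 241 nt in shNC peaks and 210 nt in shNAT10 peaks. The stretches covered in both conditions had 0.816 sites per 100 nt (95% Poisson interval 0.758 to 0.876), those covered by the shNC peak alone 0.884 (0.775 to 1.003) and those covered by the shNAT10 peak alone 0.738 (0.629 to 0.859). In 205 of the 307 regions each condition's own peaks held 2 or more sites. The other regions met the rule of 2 sites in the peaks of 1 condition at most. The shNC peaks held more sites than the shNAT10 peaks in 106 regions, fewer in 83 and the same number in 118.

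Some measures had no part in the choice of the regions and were compared with the other 3′-UTR differential peaks. The exonic sequence lay in 2 or more blocks in 95 of the 541 regions (17.6%), against 6.58% with 0 sites (difference 10.98 percentage points, 95% Newcombe interval 7.33 to 14.8) and 10.6% with 1 site (difference 6.99, interval 2.27 to 11.4). A differential peak of another gene overlapped 39 regions (7.21%), against 4.39% with 0 sites (difference 2.82, 0.208 to 5.63) and 3.43% with 1 site (difference 3.78, 0.671 to 6.67). For such regions the reads cannot be assigned to 1 gene. Some stretches are counted under each of 2 genes, such as IGF2 and INS-IGF2. The intervals for overlap treat these rows as independent, so they are too narrow, and lower limits just above 0 carry little weight. The 3′ edge of the region lay no more than 200 nt before the annotated gene end, or past it, in 57.1% of matched regions, against 35.7% with 0 sites (difference 21.4, 15.7 to 26.8) and 45.7% with 1 site (difference 11.3, 4.54 to 18.0). Length moved with all of these. In regions of 150 to 250 nt the differences from 0 sites were 2.51 percentage points for blocks (-0.670 to 7.29), -2.08 for overlap (-4.71 to 1.77) and 1.12 for the gene end (-7.31 to 10.0), and each interval included 0. From 1 site the differences were -0.491 for blocks (-5.54 to 4.79), -0.324 for overlap (-3.92 to 3.48) and -8.49 for the gene end (-18.7 to 2.05). These intervals included 0 too.

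Chromosome 19 held more of these regions than any other chromosome, 87 (16.1%), beside 11.3% of all differential peaks, and it was picked out after the values were seen. Its share was 5.12% among 3′-UTR differential peaks with 0 sites and 8.29% among those with 1 site. In regions of 150 to 250 nt the shares were 14.0% with 2 or more sites (95% Wilson interval 9.44 to 20.3), 10.1% with 1 site (6.46 to 15.3) and 4.69% with 0 sites (3.06 to 7.14). There the difference from 0 sites was 9.32 percentage points (95% Newcombe interval 4.13 to 15.8). From 1 site it was 3.96 (-3.03 to 11.2), an interval that included 0. Chromosomes 1 and 17 followed with 58 and 57 regions.

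Among the 132 regions listed in shNC only, the fold enrichment ranged from 2.17 to 124 with a median of 18.8. The highest was in GMPPB, a subunit of the enzyme that makes GDP-mannose, with 124, followed by the homeobox gene HMX1 with 107 and PEF1, a calcium-binding adaptor of protein trafficking, with 106. LDOC1, on the X chromosome, had 83.6, and a second row for nearly the same stretch of it had 76.0, so these are 1 region listed under 2 rows. DENND4B, an exchange factor for Rab GTPases, had 82.9. Each of these held 2 sites except LDOC1, which held 5. HMX1 had another peak in shNAT10, with an enrichment of 21.1, at 595 nt from the region.

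The 102 regions listed in shNAT10 only ranged from 4.02 to 110 with a median of 17.1. BPNT1, a phosphatase of sulfate metabolism, had the highest value, 110, with 2 sites. ANO10, of the anoctamin family, had 96.3 with 5 sites, and TFAP2A, a transcription factor of epidermal and neural crest development, had 82.8 with 3. ATG7, an activating enzyme of autophagy, had 78.6 with 3 sites, and MED22, a Mediator subunit, had 77.7 with 2. The top values of the conditions were of like size, and so were their medians.

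A gene whose region was listed in one condition could still carry another peak in the other. This was so for 48 of the 132 regions listed in shNC only (36.4%, 95% Wilson interval 28.7 to 44.8) and for 24 of the 102 listed in shNAT10 only (23.5%, 16.4 to 32.6). Among 3′-UTR differential peaks with 0 sites the shares were 30.3% (25.2 to 35.9) and 30.9% (25.4 to 36.9). In these genes another peak was thus listed in the condition that lacked the region.

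In the 307 regions listed in both conditions, the fold enrichment of shNAT10 over that of shNC had a median of -0.40 on the log2 scale, with quartiles at -1.60 and 1.29. The median over all 1135 differential peaks listed in both conditions was -0.30, so the regions lay close to the background. The shNC value was the higher in 174 regions (56.7%, 95% Wilson interval 51.1 to 62.1) and the shNAT10 value in 133. A difference of at least 2-fold was seen toward shNC in 117 regions (38.1%), beside 33.8% of all differential peaks listed in both, and toward shNAT10 in 96 (31.3%), beside 28.6%. Counting single-condition regions as well, 306 of 541 (56.6%, 52.4 to 60.7) leaned to shNC, beside 54.7% of all differential peaks. By number of sites the median log2 ratio was 0.00 with 2 sites, -0.59 with 3 and -0.31 with 4 or more, with no steady order.

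**Figure D4:**
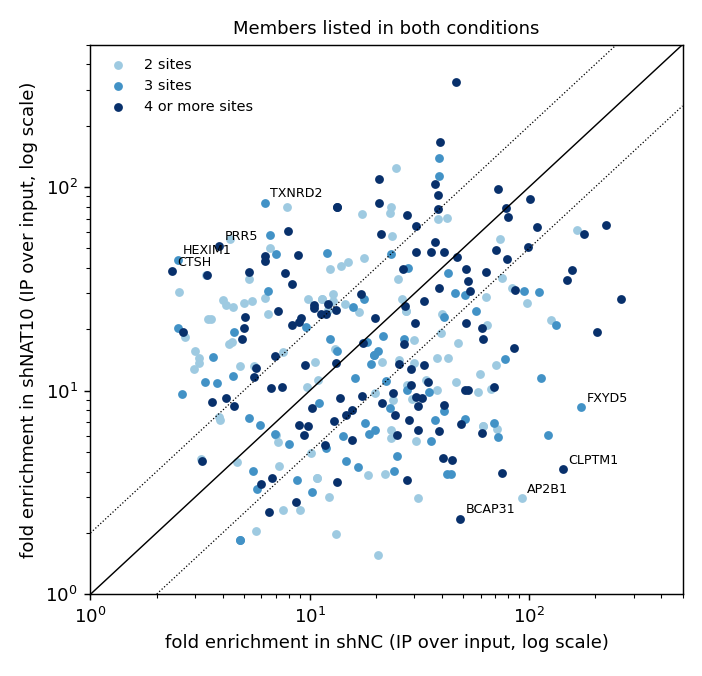
Fold enrichment of IP over input in shNC (horizontal axis) and shNAT10 (vertical axis), both on log scales, for the 307 regions listed in both conditions, coloured by number of sites; the solid line marks equal values and the dotted lines a 2-fold difference. Points lie on both sides of the line, 174 below it and 133 above, and the 8 regions with the most unequal values are named.

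The widest gap toward shNC was in CLPTM1, a transmembrane protein linked to GABA receptor trafficking, with 142 in shNC and 4.12 in shNAT10 (log2 ratio -5.11), and this region held 9 sites, among them a chain of 3. AP2B1, the beta subunit of the AP2 clathrin adaptor, had 92.5 and 2.96 (-4.97) with 2 sites. FXYD5, also called dysadherin, a regulator of the sodium pump, had 173 and 8.28 (-4.38) with 3 sites. BCAP31, a chaperone of the endoplasmic reticulum, had 48.3 and 2.35 (-4.36) with 6 sites. In these 4 genes the shNAT10 peak was still listed, at an enrichment below the list median of 12.4. Its FDR was about 1e-5, 1e-3, 1e-64 and 1e-8, in the order named, so the lower value of AP2B1 was weakly supported.

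Toward shNAT10 the gap was widest in HEXIM1, an inhibitor of the elongation factor P-TEFb, with 2.50 in shNC and 43.9 in shNAT10 (log2 ratio 4.13) and 3 sites. CTSH, the aminopeptidase cathepsin H, had 2.35 and 38.7 (4.04) with 5 sites in 3 exonic blocks. TXNRD2, the mitochondrial thioredoxin reductase, had 6.22 and 83.7 (3.75) with 3 sites, and PRR5, a component of mTOR complex 2, had 3.85 and 51.5 (3.74) with 4. The shNC peak had an FDR of only about 1e-2 in HEXIM1, 1e-4 in CTSH and TXNRD2 and 1e-3 in PRR5, so the lower values were weakly supported. The higher value was 34.5, 31.2, 20.9 and 20.6 times the lower in the 4 genes with the widest gaps toward shNC, and 17.6, 16.5, 13.5 and 13.4 times in these 4, in the order named.

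Only 12 genes carried more than 1 of these regions, and no gene had 1 region listed in shNC only and another in shNAT10 only. Among the 12 are CLDN4 and LDOC1, whose 2 rows each cover nearly the same stretch. CHD3, a chromatin remodeller of the NuRD complex, was the only gene with 3. From 5′ to 3′ its regions had 5.67 in shNC and 2.05 in shNAT10, then 70.4 and 13.3, then 70.4 with no shNAT10 peak, where the last 2 overlap 1 and the same shNC peak. All 3 were thus lower or unlisted in shNAT10. In DDX39B, an RNA helicase of mRNA export, the regions went opposite ways, with 18.4 in shNC and 3.86 in shNAT10 for the 5′ region, and 9.14 and 22.8 for the 3′ region. Both are also overlapped by a region of the readthrough gene ATP6V1G2-DDX39B, with 19.8 and 22.8. SLC25A10, the mitochondrial dicarboxylate carrier, was higher in shNAT10 in each of its regions, with 13.3 and 79.4 in the first and 12.4 and 39.4 in the second, and the first was also listed under the overlapping gene AC139530.2. Regions also leaned opposite ways within AGRN, IFI30, KLHDC3 and WNT7B, and the same way within HR, SOX12 and SREBF1. DDX39B and SLC25A10 were picked out after their values were seen.

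A set of 8 gene lists was set against the regions, and their counts are given beside the 56.6% of all 541 regions that leaned to shNC. Over all 2483 genes with a differential peak of any class, 528 (21.3%) had one of these regions. Of the MAP kinase and growth factor receptor list, 12 of 47 genes had a differential peak of any class and 3 had one of these regions. ERBB3, a receptor of the EGFR family, had 58.2 in shNC and 9.80 in shNAT10 with 2 sites. HRAS, the small GTPase upstream of the MAP kinases, had 29.0 and 10.6 with 8 sites over 5 exonic blocks. MAP2K7, a kinase that activates JNK, went the other way, listed in shNAT10 only with 23.1 and 3 sites, although 3 other peaks of the gene were listed in shNC, the nearest 119 nt away with 4.14.

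Of the lysosome list, 16 of 44 genes had a differential peak and 7 had one of these regions, 5 of which leaned to shNC. GLMP, the glycosylated lysosomal membrane protein followed up in the study, was listed in shNC only, with an enrichment of 18.1 and 2 sites in a region of 240 nt (chr1:156292778-156293017, GRCh38, minus strand) that ended 90 nt before the gene end. Its enrichment was just below the 18.8 that was the median of regions listed in shNC only. CTSA, a carboxypeptidase that protects other lysosomal enzymes, had 31.1 in shNC and 8.45 in shNAT10, and the granulin precursor GRN had 14.6 and 4.53. The proteases CTSD and CTSB were enriched in both conditions with closer values, 70.7 and 49.2, and 101 and 87.4, and 8 sites each. Within the list the exceptions in direction were 2 genes: the cholesterol carrier NPC2 had 4.14 in shNC and 26.2 in shNAT10, and LAPTM4B, a membrane protein of late endosomes, had 17.3 and 73.9. The list does not hold every lysosomal gene, and the cathepsin CTSH, described above, is among those it leaves uncounted.

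The list of epithelial adhesion, keratins and matrix had 18 of 57 genes with a differential peak and 2 with one of these regions, and both were higher in shNAT10. JUP was described above, and CLDN4, a claudin of tight junctions, had 3.14 in shNC and 14.4 in shNAT10, with a second row for nearly the same stretch at 3.14 and 13.7. In the cytokine receptor and interferon list (11 of 38 genes with a differential peak), 6 genes had a region and 5 leaned to shNC. TNFRSF1A, the TNF receptor, had 71.1 in shNC and 6.48 in shNAT10, and IRF3, a transcription factor of the interferon response, had 22.1 and 3.90. STAT3 and the death receptor gene TNFRSF10B were listed in shNC only, with 12.4 and 5.30, and STAT3 had another shNAT10 peak with 10.4 at 118 nt. IRF2BP1, a corepressor, had nearly equal values of 27.3 and 25.9 with 10 sites. TYK2, a Janus kinase, was the member that leaned to shNAT10, with 3.53 in shNC and 22.5.

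Of the ubiquitin, proteasome and COP9 list, 34 of 65 genes had a differential peak and 5 had one of these regions, all listed in both conditions. RNF26, a ubiquitin ligase of the endoplasmic reticulum, had the widest gap, with 122 in shNC and 6.07 in shNAT10. USP22, the deubiquitinase of the SAGA complex, had 34.8 and 9.79, FBXL19, an F-box protein, had 30.4 and 9.30, and UBE2M, the NEDD8-conjugating enzyme, had 25.4 and 13.5. The shNAT10 peak of FBXL19 had an FDR of only about 1e-1. VCP, the segregase of ubiquitylated proteins, had 7.52 and 15.5. UBE2V1, COPS4 and NAT10 itself had no region of this kind.

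In the chromatin list (18 of 70 genes with a differential peak) 6 genes had 8 regions, of which 4 leaned to shNC and 4 to shNAT10. Besides CHD3, SMARCD2, a subunit of the SWI/SNF remodellers, had 126 in shNC and 22.1 in shNAT10. The methyltransferase genes EHMT2 and KMT5A were listed in shNAT10 only, with 12.5 and 26.2. BAP1, a histone deubiquitinase, had 3.34 in shNC and a higher value in shNAT10 (log2 ratio 1.72), and HMGA1, an architectural protein of chromatin, had 4.50 and 8.38.

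In the cell cycle list (17 of 51 genes with a differential peak) 8 genes had a region, and 5 leaned to shNAT10. The D-type cyclins, which partner CDK4 and CDK6 in G1, went the same way: CCND1 had 9.57 in shNC and 20.5 in shNAT10, CCND2 had 17.6 and 44.8, and CCND3 was listed in shNAT10 only with 20.3. MCM4, of the replicative helicase, had 2.50 and 20.3, and MAD2L2, a partner of translesion polymerases, was listed in shNAT10 only with 4.02. E2F1, the transcription factor of S-phase genes, had 24.5 and 7.61, the licensing factor CDT1 had 7.52 and 2.60, and the mitotic kinase AURKA was listed in shNC only with 5.74. In the list for RNA modification and decay (14 of 57 genes with a differential peak) 3 genes had a region. UPF1, the helicase of nonsense-mediated decay, was listed in shNC only with 12.4, SMG5 of the same pathway had 16.7 in shNC and 24.4 in shNAT10, and the exosome subunit EXOSC6 was listed in shNAT10 only with 33.0.

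**Figure D5:**
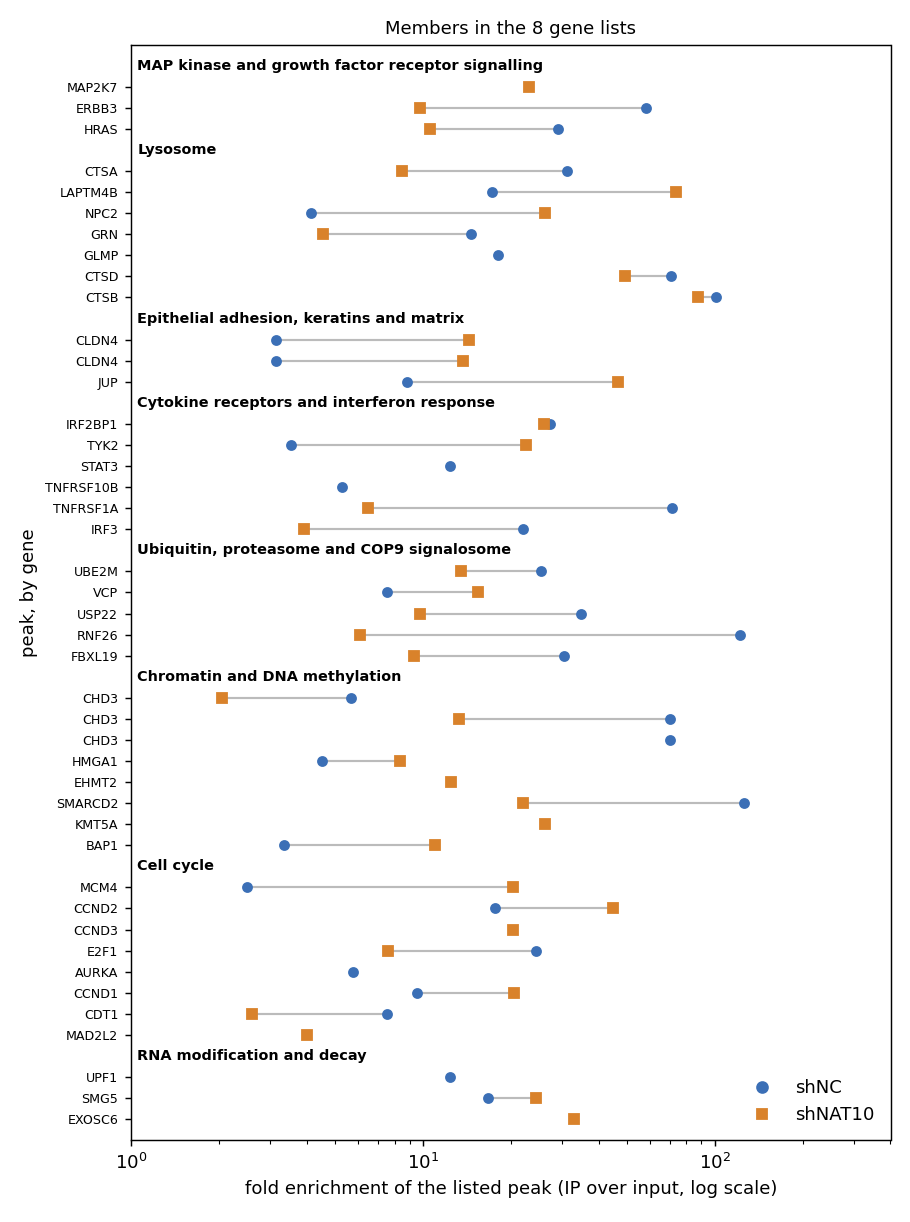
Fold enrichment of IP over input (horizontal axis, log scale) for each region in a gene of the 8 lists (vertical axis), in shNC (circles) and shNAT10 (squares), joined where a region was listed in both conditions; 1 value per condition, without replicates. Both CLDN4 rows and JUP lie higher in shNAT10, 5 of the 7 lysosome regions are listed in or lean to shNC, and single symbols mark regions listed in 1 condition.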

How the data were processed

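Peaks of acRIP-seq in FaDu cells were taken from 3 tables deposited by the authors: 1 peak list per condition, each from 1 IP and 1 input library, and 1 table of differential peaks. The fold enrichment of IP over input is a linear ratio computed by the authors, and the log10 FDR, region class, gene and site positions are theirs too. Per the submitters' processing notes the tools included cutadapt 2.5, HISAT2 2.1.0, HOMER 4.10.4 and featureCounts 1.6.3, with GRCh38 among the builds. The peak caller, its thresholds and the scaling between libraries are not given in the sources used here. The differential table also holds the authors' own fold change, p-value and FDR between the conditions, which were not used. Whether a peak absent from a list lay near the caller's threshold was not tested.

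Regions were paired with listed peaks by exonic blocks (same strand, at least 1 bp), taking the longest overlap. On the minus strand, site positions in regions of 2 or more blocks had been written with the blocks counted in the wrong order. The first base lay in a listed block for 415 of 755 such sites as deposited, and for all 755 once the blocks were counted from the 5′ edge, against 770 of 770 on the plus strand. Sites were therefore placed in the spliced region. All 38 sites readable in the RefSeq promoter and hairpin sequences then matched the motif. Members and gene lists were chosen with earlier results of these data known. The results of 2 genes of the lists are not reported here, and the counts of the lists leave them out. Named genes were those of the 8 lists and the study's own, the 5 with most sites (ties taken in the order of chromosome and position), the 5 highest enrichments in each single-condition class, the 4 highest and 4 lowest ratios, and genes with 3 regions. The overlap and interval code was tested on simulated data. Python 3.11.15 with numpy, pandas, scipy and matplotlib was used.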

Additional observations from a re-analysis of the deposited data

How the results depend on the processing

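Of 36 alternative values, 19 stayed within the 95% interval of the value given and 17 moved outside it. Shares and site densities cannot change sign, and the median log2 ratio, which can, stayed negative. The share listed in both conditions fell from 56.7% to 41.4% at an overlap of 50% of both peaks, 48.4% for listed peaks with an enrichment of at least 4, 42.9% for an FDR of at most 1e-10 and 12.7% in regions of 150 to 250 nt, and was 65.7% with 3 or more sites. The share listed in shNC only was then 33.0%, 28.2%, 30.8%, 47.1% and 19.9%, and that in shNAT10 only 25.7%, 23.4%, 26.3%, 40.1% and 14.4%, in the same order. The shares are over 534, 535, 468, 157 and 306 regions, again in that order. Regions in neither list at a stricter setting were left out. Regions listed in both conditions were thus the largest class in each of these settings except 150 to 250 nt, where they were the smallest. Sites per 100 nt were 1.06 with 3 or more sites, and 0.845 when only sites inside the blocks as deposited were counted, a setting chosen after seeing the data. The median log2 ratio ranged from -0.28 to -0.49. Leaving out regions that overlap another gene's row, and counting genes in place of peaks, moved no share outside its interval. Listed sites never overlap, so that alternative changed nothing. No paired analysis was possible because each group has 1 sample, and no replicate could be left out. Depth could not be judged, since the tables hold no reads.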
